A study of Sus scrofa with 2 samples.

Results

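IL4-positive iNKT thymocytes are the invariant natural killer T (iNKT) thymocytes of the pig with at least 1 unique molecular identifier (UMI, 1 counted transcript molecule) of IL4. Cells of the iNKT library were kept with at least 500 genes, at most 10% of UMIs from 13 mitochondrial genes and at most 1 UMI summed over TOP2A, UBE2C, PCLAF and TK1, genes of dividing cells. This left 11044 cells, of which 1008 were IL4-positive and 10036 had no UMI of IL4, out of 21209 barcodes in the whole series. For each IL4-positive cell, 3 IL4-negative cells of nearly the same total UMIs were drawn, 3024 in all. Both groups were chosen by their counts of IL4, so the level of IL4 is a description, and the comparison concerns the other genes.

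The pigs, 2 untreated animals of mixed breed, were 22 weeks old, and their cells were pooled. Total thymocytes formed 1 library. iNKT cells, taken by positive selection on magnetic beads from the same thymi and sorted as live cells, formed the other, by droplet 3′ single-cell RNA sequencing. Both groups compared here come from that iNKT library and share the pooling, the beads and the sort. The reagent on the beads is not given in the sources used here. With 1 library there is no replicate check, so no test was run. Each ratio carries a 95% interval that covers counting error only.

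iNKT cells carry a semi-invariant T cell receptor that recognises lipids presented by CD1D. They arise in the thymus from double-positive precursors and take up effector fates there under the transcription factor PLZF, encoded by ZBTB16. IL4, the interleukin of type 2 responses, is transcribed in T cells when receptor signals bring NFAT, AP-1, IRF4 and MAF to a locus opened by GATA3. In mice, some iNKT thymocytes make it at rest and thereby condition neighbouring thymocytes.

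The iNKT library held 12097 barcodes with 54457966 UMIs and the total thymocyte library 9112 barcodes with 29723207 UMIs, and 41 barcode sequences occurred in both. IL4-positive cells had a median of 4876 UMIs (range 1036 to 24225) and 1635.5 genes, and the drawn cells 4868.5 UMIs and 1645 genes. Mitochondrial genes took a median of 4.81% and 4.88% of UMIs. Some listed markers of iNKT identity were detected in most cells of both groups. CD3E, the signalling chain of the receptor complex, was detected in 98.8% and 99.0% of them, and ZBTB16 in 64.4% and 61.9%. KLRB1 had no UMI in either group. These transcripts do not by themselves establish that each cell is an iNKT cell, and the name is that of the label.

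IL4 was detected in 9.13% of the iNKT cells (95% Clopper-Pearson interval 8.60 to 9.68). Among 6747 total thymocytes kept by the same filters, 1 cell had a UMI of IL4 (0.0148%, interval 0.000375 to 0.0826), at a median depth of 2066 UMIs against 4117 UMIs in all IL4-negative iNKT cells. Of 10 cells of the iNKT library with B-lineage transcripts and no CD3E, with a median of 2318.5 UMIs, 0 had IL4, which allows a share of up to 30% when the limit is set at 3 counts and of up to 30.8% by the Clopper-Pearson interval. Most positive cells sat at the threshold. Of the 1008, 817 had exactly 1 UMI of IL4, 135 had 2, 28 had 3, 14 had 4, and 14 had 5 or more, with 14 UMIs in the highest cell. Free RNA in droplets can give a UMI of IL4 to a cell that does not express it. The 10 B-lineage cells are too few to tell how many of the 817 cells are of this kind. The total thymocytes cannot tell it either, since they are another library.

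Detection followed depth. When the iNKT cells were ordered by total UMIs and cut into 5 groups of near-equal size, IL4 was found in 5.70% of the shallowest, 6.38%, 7.71%, 10.0% and 15.8% of the deepest cells. The level of IL4, scaled to the summed UMIs of the group (CPM), had no such order, with 28.0, 23.2, 21.7, 27.2 and 27.7 CPM. After each cell was thinned to 2000 UMIs, which left out 13 positive and 295 negative cells as shallower, 4.44% of cells had a UMI of IL4. Cells without a UMI of IL4 therefore include cells whose IL4 transcripts were not sampled, and the groups were matched on total UMIs.

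**Figure D1:**
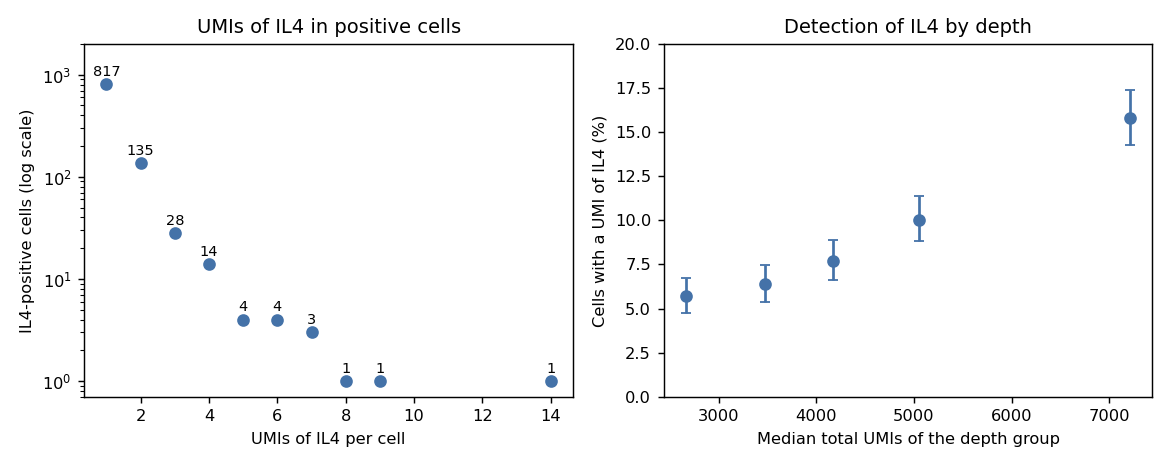
Left, the number of IL4-positive cells (log axis) against the UMIs of IL4 in a cell, where 817 of 1008 cells had 1 UMI. Right, the share of iNKT cells with a UMI of IL4 against the median total UMIs of each of the 5 depth groups, with 95% Clopper-Pearson intervals, which ran from 5.70% to 15.8%.

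Most genes stood at almost the same level in cells with and without IL4. Of 8300 genes with at least 100 UMIs over both groups, 61 (0.735%) were at least 1.5-fold higher in IL4-positive cells and 86 (1.04%) at least 1.5-fold lower. At 2-fold the counts were 9 (0.108%) and 7 (0.0843%), and at 1.25-fold, a limit added later, 429 (5.17%) and 495 (5.96%). The median log2 ratio was 0.00, and 90% of the ratios lay between 0.788 and 1.25. In simulated counts, 0.852% of 8100 genes set to equal levels in both groups were past 1.5-fold in either direction, from counting error alone. The 15 named on the higher side included well-covered genes, such as CD69 at 187.7 CPM in IL4-positive cells, and low ones, such as ZNF304 at 7.28 CPM. The 15 named on the lower side were at most at 12.8 CPM in either group.

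**Figure D2:**
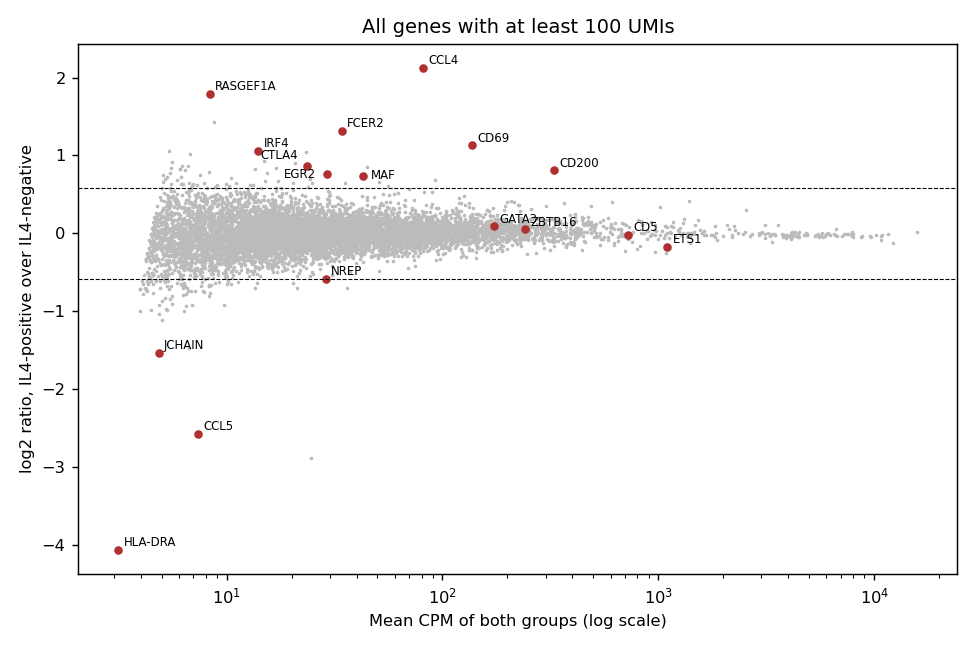
log2 of the CPM ratio of IL4-positive over IL4-negative cells against the mean CPM of both groups (log axis), 1 point per gene with at least 100 UMIs, IL4 left out, dashed lines at 1.5-fold, some named genes in red. CCL4, FCER2, CD69 and CD200 lie above the band of well-covered genes, GATA3 and ZBTB16 inside it.

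CD69, an early activation receptor that holds T cells in tissue, was the best covered of the genes with a symbol past 2-fold. It stood at 187.7 CPM in IL4-positive and 85.8 CPM in IL4-negative cells, a ratio of 2.19 (2.02 to 2.37), and was detected in 35.7% and 23.6% of cells. FCER2, the low-affinity IgE receptor CD23, known as a target of IL4 in B cells, stood at 48.8 and 19.6 CPM, a ratio of 2.49 (2.12 to 2.94), in 15.3% and 6.38% of cells. PTGS2, the inducible cyclooxygenase, stood at 31.3 and 15.2 CPM, a ratio of 2.06 (1.69 to 2.50). COL4A1, a collagen of basement membranes, had a ratio of 1.87 (1.52 to 2.30), and GEM, an inducible small GTPase, 1.81 (1.57 to 2.08).

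CCL4, a chemokine that recruits immune cells, had the highest ratio among the genes with a symbol and at least 100 UMIs. It stood at 132.7 and 30.5 CPM, a ratio of 4.35 (3.88 to 4.88), and was found in 7.94% and 3.94% of cells. Its UMIs sat in few cells: 55.3% of those in the positive group came from 10 cells, and 1 cell held 147. RASGEF1A, an exchange factor of the RAS family, had 73 and 63 UMIs, a ratio of 3.46 (2.43 to 4.92). TULP2 had a ratio of 1.81 (1.24 to 2.63), but 87.5% of its UMIs in positive cells came from 10 cells, and it was detected in 1.59% of positive and 1.69% of negative cells. ZNF304, PLPP2, PARD3, NOCT and PHLDA2 had ratios of 1.78 to 2.07 and at most 21.7 CPM. With IRF4 and CTLA4, described below, they complete the 15 highest genes with a symbol. PTGS2, GEM, ZNF304, PLPP2, PARD3 and PHLDA2 each fell short of 1.5-fold in 1 of 14 alternative settings. TULP2, whose ratio ran from 1.11 to 4.85, did so in more of them.

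Among other genes past 1.5-fold, chosen here after their values were seen, CD200 was the most abundant. CD200, a surface glycoprotein that restrains myeloid cells, stood at 416 and 238 CPM, a ratio of 1.75 (1.66 to 1.84), in 59.1% and 50% of cells. COL4A2, the partner chain of COL4A1, had a ratio of 1.56 (1.26 to 1.92). KDSR, an enzyme of ceramide synthesis, stood at 113.8 and 70.8 CPM, a ratio of 1.61 (1.46 to 1.77). NRP1, the semaphorin receptor neuropilin 1, had a ratio of 1.52 (1.34 to 1.72).

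Of the regulators of IL4 transcription, 36 of the 43 listed genes in the files were measured, and 2 of them, IRF4 and MAF, were at least 1.5-fold higher, while none was as far lower (0.735% and 1.04% over all genes). The list's median log2 ratio was -0.05, beside 0.00 for all genes. IRF4, a factor induced by receptor signals, stood at 19.0 and 9.11 CPM, a ratio of 2.09 (1.61 to 2.69), and MAF, which binds the IL4 promoter, at 53.8 and 32.2 CPM, a ratio of 1.67 (1.45 to 1.93). NFATC1, the NFAT member that receptor signals induce, had a ratio of 1.29 (1.11 to 1.51), against 1.05 (0.902 to 1.22) for NFATC2. Of the AP-1 factors, JUNB had a ratio of 1.38 (1.05 to 1.79) and FOS of 1.15 (1.10 to 1.19). JUN, JUND and BATF were not found under their symbols and were not analysed here.

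The factors that define the type 2 and innate-like programs stood close to each other in both groups. GATA3, the master factor of type 2 fate, was at 178.8 CPM in IL4-positive and 168.3 CPM in IL4-negative cells, a ratio of 1.06 (0.988 to 1.14). ZBTB16 was at 245 and 237 CPM, a ratio of 1.04 (0.973 to 1.10). STAT6, which carries the signal of the IL4 receptor, had a ratio of 1.12 (0.885 to 1.40), and IL4R, a chain of that receptor, 1.2 (1.05 to 1.38). RUNX3, which silences IL4 in other T cells, had a ratio of 0.989 (0.827 to 1.18). ETS1 was slightly lower, at a ratio of 0.889 (0.863 to 0.915), as were STAT5B at 0.823 (0.715 to 0.944) and SATB1, a chromatin organiser, at 0.920 (0.885 to 0.956).

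The neighbours of IL4 in the type 2 cytokine locus were not higher beside it. IL13 had 0 UMIs over all barcodes of the iNKT library. IL5 had 25 UMIs in IL4-positive and 84 in the larger group of IL4-negative cells, 4.44 and 5.0 CPM, a ratio of 0.888 (0.544 to 1.40). RAD50, the DNA repair gene between IL5 and IL13 that holds a control region of the locus in mice, had a ratio of 0.953 (0.856 to 1.06). IL9 had 1 and 3 UMIs and IL10 had 0 and 2. IFNG and IL17A, the signature cytokines of the type 1 and type 17 fates, had 0 UMIs over the whole library.

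Antigen-receptor response genes were the list with the highest median among the lists with at least 5 measured members. Of 49 listed genes, 47 were in the files and 40 were measured, and in IL4-positive cells 7 of the 40 reached 1.5-fold on the higher side and 0 on the lower. Over all genes 0.735% were as far higher. At 1.25-fold 14 members were higher, beside 5.17% of all genes. The list's median log2 ratio was 0.19, and its summed level was 5499 CPM against 4773 CPM. The members past 1.5-fold were CD69, IRF4, CTLA4, IL2RA, EGR2, NFKBID and BCL2A1. CTLA4, an inhibitory receptor for CD80 and CD86, stood at 30.5 and 16.8 CPM, a ratio of 1.81 (1.49 to 2.20). EGR2, the zinc finger factor needed for iNKT development, stood at 36.8 and 21.7 CPM, a ratio of 1.70 (1.42 to 2.02).

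NFKBID, an atypical inhibitor of NF-kB, had a ratio of 1.59 (1.26 to 1.99), and BCL2A1, a survival protein of the BCL2 family, 1.57 (1.34 to 1.83). IL2RA, the alpha chain of the interleukin 2 receptor, had 40 and 67 UMIs, a ratio of 1.78 (1.17 to 2.67). The ratio of IL2RA ran from 1.30 to 2.53 over the 14 alternative settings and was past 1.5-fold in 9 of them. Below the threshold stood NR4A2, an orphan nuclear receptor, with a ratio of 1.42 (1.26 to 1.60), NAB2, a co-repressor of EGR factors, with 1.40 (1.24 to 1.59), and TNFRSF18, the costimulatory receptor GITR, with 1.33 (1.28 to 1.38). NR4A3, chosen after its values were seen, had too few UMIs to be counted, 27 in positive and 12 in negative cells, a ratio of 6.71 (3.29 to 14.5). Its positive UMIs came from 1.29% of cells.

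Other members of the same list were nearly level. EGR1 stood at 318 and 311 CPM, a ratio of 1.02 (0.970 to 1.08), and NR4A1 at 22.9 and 21.7 CPM, a ratio of 1.06 (0.858 to 1.30). CD5, which reports the strength of receptor signals, stood at 719 and 728 CPM, a ratio of 0.987 (0.953 to 1.02). The NF-kB genes NFKB1 and NFKBIA had ratios of 1.0 (0.882 to 1.13) and 1.06 (0.969 to 1.15). TNFRSF4, the costimulatory receptor OX40, had a ratio of 1.13 (1.10 to 1.16).

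**Figure D3:**
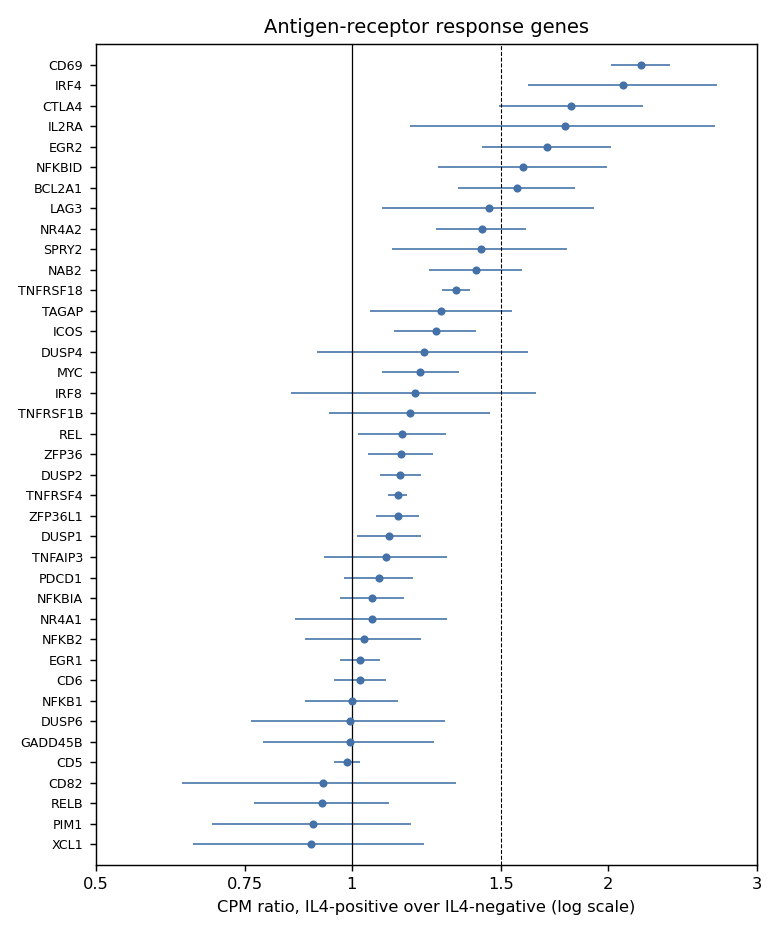
CPM ratio (log axis) of IL4-positive over IL4-negative cells with 95% counting intervals for the measured antigen-receptor response genes, 1 left out, with a dashed line at 1.5-fold. The ratios plotted run from 0.897 for XCL1, a chemokine, to 2.19 for CD69, and 7 genes lie past 1.5-fold.

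How often the 7 response genes past 1.5-fold were detected in the same cell is a description, since their ratios had chosen them. At least 2 of them had a UMI in 26.6% of IL4-positive cells (268) and 15.2% of IL4-negative cells (460). None of them was detected in 46.3% and 58.9% of cells. A UMI of any EGR or NR4A gene was about as frequent in both groups, in 77.2% and 75.5% of cells.

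The comparison was repeated among cells with and without such a UMI, each with its own drawn cells. Among 230 positive and 690 negative cells with no UMI of EGR1 to EGR3 or NR4A1 to NR4A3, CD69 had a ratio of 2.20 (1.77 to 2.74). It was 2.18 (2.0 to 2.37) among 778 and 2334 cells that had one. MAF had ratios of 1.88 (1.32 to 2.65) and 1.70 (1.45 to 2.0), CTLA4 of 2.14 (1.27 to 3.57) and 1.82 (1.47 to 2.25), and FCER2 of 3.48 (2.38 to 5.11) and 2.14 (1.79 to 2.56). NFKBID had a ratio of 0.711 (0.318 to 1.44) in cells without these transcripts and 1.75 (1.37 to 2.23) in cells with them. Whether the ratios differ between the cell sets was not tested.

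Of the 7 response genes past 1.5-fold, 6 stood higher the more UMIs of IL4 a cell had. IL2RA did not, with 3.99, 7.18 and 7.30 CPM in cells with 0, 1 and 2 to 4 UMIs of IL4 and 0 UMIs in those with 5 or more. CD69 was at 85.8 CPM in the drawn IL4-negative cells, 143 CPM in the 817 cells with 1 UMI of IL4, 312 CPM in the 177 cells with 2 to 4, and 972 CPM in the 14 cells with 5 or more. It was detected in 23.6%, 31.5%, 52.5% and 71.4% of these cells. EGR2 was at 21.7, 32.1, 48.4 and 139 CPM in the same order, and CTLA4 at 16.8, 25.1, 48.4 and 88.4 CPM. CD200, which is no member of that list, was at 238, 359.7, 602.5 and 1023 CPM. For CD69, EGR2, CTLA4 and CD200, the cells just inside the threshold, with 1 UMI of IL4, lay between those without IL4 and those with more. The 7 response genes and CD200 were chosen by their ratios in these same positive cells. A rise from 0 UMIs of IL4 was thereby favoured, and the order is a description. This holds for FCER2 and CCL4 below as well. Median depths were 4729, 5373 and 4526 UMIs in the classes with 1, 2 to 4 and at least 5 UMIs.

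MAF reached 44.7 CPM with 1 UMI of IL4, 87.6 CPM with 2 to 4 and 101 CPM with 5 or more, from 32.2 CPM without, and FCER2 reached 39.0, 84.9 and 101 CPM from 19.6 CPM. IRF4 was at 9.11, 17.1, 25.6 and 37.9 CPM, the last from 3 UMIs with an interval of 7.81 to 111 that holds the other levels. BCL2A1 was at 27.6, 37.0, 53.9 and 240 CPM (interval 144 to 375 for the last), and NFKBID at 13.4, 17.1, 32.9 and 101 CPM. CCL4 was at 30.5, 47.6, 241 and 3421 CPM, and was detected in 3.94%, 5.88%, 14.1% and 50% of the cells. GATA3 was at 168, 174, 202 and 151.5 CPM (78.3 to 265 for the last) and ZBTB16 at 237, 243, 262 and 164 CPM (87.4 to 281). Both rose slightly up to 4 UMIs of IL4 and were lower in the 14 cells with 5 or more. These last levels came from 12 and 13 UMIs, and their intervals hold the levels of the other classes. EGR1, at 311, 316, 318 and 454.5 CPM (318 to 629), was level up to 4 UMIs of IL4. NR4A1, at 21.7, 24.7, 14.6 and 37.9 CPM, had no order, and JUNB, at 10.7, 14.4 and 17.3 CPM up to 4 UMIs of IL4, had 0 UMIs in the 14 cells with 5 or more.

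**Figure D4:**
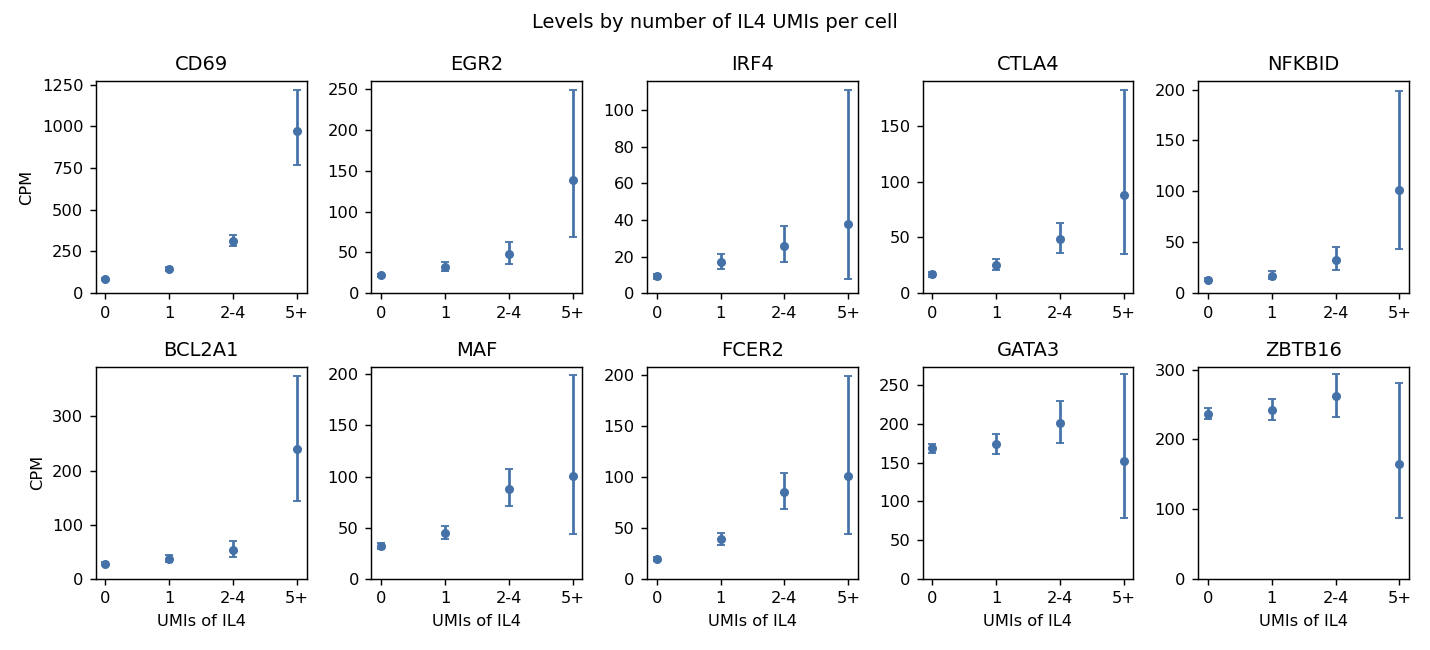
Levels in CPM with 95% Poisson intervals of 10 genes in iNKT cells with 0, 1, 2 to 4 and at least 5 UMIs of IL4 (3024, 817, 177 and 14 cells), each panel with its own axis from 0. CD69 runs from 85.8 to 972 CPM, whereas GATA3, ZBTB16 and IRF4 have overlapping intervals in the first and last class.

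With at least 2 UMIs of IL4 as the threshold (191 cells) and 573 newly drawn negative cells, 4800 genes were measured. Of these, 123 (2.56%) were at least 1.5-fold higher and 174 (3.62%) as far lower. Under both thresholds 17 genes were higher, 27.9% of the 61 and 13.8% of the 123. Of the 61, the same 17 were the ones with enough UMIs to be measured there, and the cells with at least 2 UMIs are among the 1008, so this overlap is no independent check. Of the antigen-receptor response genes, 9 of 25 measured reached 1.5-fold on the higher side and 0 on the lower, at a median log2 ratio of 0.40. Of 29 measured regulators of IL4 transcription, 3 were as far higher and 4 as far lower, at a median log2 ratio of -0.06. Against these drawn cells CD69 had a ratio of 3.55 (3.08 to 4.10), MAF of 3.35 (2.50 to 4.47), CTLA4 of 3.45 (2.34 to 5.10) and GATA3 of 1.26 (1.07 to 1.47).

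The relation can be read from the other gene as well, a view chosen after the ratios were seen. After thinning to 2000 UMIs, IL4 was detected in 3.87% of cells with no UMI of CD69, 7.11% with 1 and 10.4% with at least 2 (7.63%, 11% and 20.3% before thinning). The same shares for MAF were 4.16%, 8.16% and 11.8% (8.38%, 13.7% and 21.8% before thinning). They rose in the same order for EGR2 (4.38%, 5.52% and 8.77%), CTLA4 (4.30%, 8.04% and 13.9%) and CD200 (3.64%, 5.25% and 8.16%), all after thinning. The last class was small for MAF (68 cells, interval 5.22% to 21.9%), EGR2 (57 cells, 2.91% to 19.3%) and CTLA4 (36 cells, 4.67% to 29.5%). IRF4 was level after thinning, at 4.44%, 4.64% and 4.76% (8.88%, 18.7% and 18.6% before), with 21 cells in the last class. FCER2 had no order, at 4.18%, 14.8% and 4.76% (8.36%, 22.5% and 24.3% before), with 63 cells in the last. The shares also rose for ZBTB16, at 4.24%, 4.46% and 6.17% (7.37%, 9.49% and 12.1%), with 843 cells in the last class. For GATA3 they were 4.44%, 4.30% and 5.10% (8.27%, 9.07% and 12.3%). KLF2, a factor of thymic exit, gave 4.97%, 4.05% and 4.12% (9.97%, 9.85% and 8.84%).

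Among the components that carry receptor signals, 34 were measured and 0 reached 1.5-fold in either direction, with a median log2 ratio of -0.05. PTPN6, the phosphatase SHP-1, stood at 236 and 177 CPM, a ratio of 1.34 (1.25 to 1.43). ZAP70, the kinase that docks on the activated receptor, had a ratio of 1.28 (1.21 to 1.37), and LCP2, the adaptor SLP-76, 1.24 (1.17 to 1.32). SLAMF1, a homotypic receptor needed in iNKT selection, was lower, at a ratio of 0.796 (0.679 to 0.928).

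Genes of growth, protein folding and glycolysis leaned to the higher side by small amounts. Of 28 measured growth and MYC-linked genes, 0 were at least 1.5-fold higher and 1 was as far lower (0.735% and 1.04% over all genes). The lower gene was the transferrin receptor TFRC, at 21 and 95 UMIs and a ratio of 0.659 (0.390 to 1.07). The median log2 ratio of the growth genes was 0.16, and 0.36 with at least 2 UMIs of IL4. RRS1, a ribosome assembly factor, had a ratio of 1.37 (1.16 to 1.61), SRM, the spermidine synthase, 1.32 (1.16 to 1.5), and MYC itself 1.2 (1.08 to 1.34). Heat shock and folding genes had a median log2 ratio of 0.14 over 28 genes, with the chaperones HSPA8 at 1.26 (1.22 to 1.30) and DNAJB1 at 1.28 (1.2 to 1.37). The median of 16 glycolysis genes was 0.11, against -0.02 for 31 nuclear genes of oxidative phosphorylation.

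Of 15 measured other cytokines and chemokines, 1 was at least 1.5-fold higher, CCL4, and 1 as far lower, CCL5, at a median log2 ratio of 0.16 (0.735% and 1.04% over all genes). The lower level of CCL5 rested on 13 drawn cells, and its ratio was 3.58 with another draw. TNFSF11, the ligand RANKL that supports medullary epithelium, stood at 96.8 and 66.9 CPM, a ratio of 1.45 (1.30 to 1.61). CD40LG, the CD40 ligand, had a ratio of 1.15 (1.10 to 1.21), and TNF of 1.11 (1.01 to 1.23). TGFB1 was lower, at a ratio of 0.851 (0.746 to 0.968). CCL3L1, a relative of CCL4 whose reads may be shared among near-identical copies, had 17 and 11 UMIs, a ratio of 4.61 (2.04 to 10.9).

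Genes of the type 2 fate other than IL4 had a median slightly above that of all genes. Of 12 measured type 2 genes, 0 reached 1.5-fold in either direction. The median log2 ratio was 0.10, beside 0.11 for glycolysis genes. With at least 2 UMIs of IL4 it was 0.17 for either list. There, 1 of 8 measured type 2 genes was at least 1.5-fold higher, beside 2.56% of all genes. HPGDS, a haematopoietic enzyme that makes prostaglandin D, was lower in IL4-positive cells, at 157 and 185 CPM and a ratio of 0.849 (0.787 to 0.915). So was IL1RL1, the interleukin 33 receptor, at a ratio of 0.767 (0.593 to 0.982). ICOS, a costimulatory receptor, had a ratio of 1.26 (1.12 to 1.40), and CCR4, a chemokine receptor of type 2 cells, 1.14 (1.05 to 1.24).

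Type 1 and cytotoxic genes had a median log2 ratio of -0.19 over 10 measured genes, and 2, CCL5 and GZMH, were at least 1.5-fold lower, beside 1.04% of all genes. Neither call held under every setting, since CCL5 had a ratio of 3.58 with another draw of IL4-negative cells and GZMH had ratios of 0.484 to 0.933, past the fold in 11 of 14 alternatives. GZMH, a granzyme, had 29 and 144 UMIs, a ratio of 0.601 (0.389 to 0.90), and NKG7, a granule membrane protein, had a ratio of 0.760 (0.609 to 0.942). PRF1, which encodes perforin, had a ratio of 0.957 (0.777 to 1.17), and CST7, a protease inhibitor of granules, 1.22 (1.14 to 1.29). Of 6 measured type 17 genes, 0 reached 1.5-fold, and their median log2 ratio was 0.14.

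Migration genes differed in both directions, 0 of 21 reached 1.5-fold, and their median log2 ratio was 0.02. GPR183, the oxysterol receptor that guides lymphocytes, stood at 228 and 172 CPM, a ratio of 1.32 (1.24 to 1.41), and CXCR4, the receptor for CXCL12, had 1.28 (1.14 to 1.44). ITGB7, an integrin chain of gut homing, stood at 82.8 and 104.8 CPM, a ratio of 0.790 (0.712 to 0.875). CCR9, a receptor of immature thymocytes and gut homing, had a ratio of 0.828 (0.716 to 0.954).

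The precursor and post-selection genes, 16 measured, had a median log2 ratio of -0.02, and of -0.25 with at least 2 UMIs of IL4. Of the 16, 2 were at least 1.5-fold higher, CD69 and EGR2, both response genes as well, beside 0.735% of all genes. MYB, a factor of early thymocytes, stood just under that threshold, at 20.4 and 13.6 CPM and a ratio of 1.5 (1.19 to 1.88). NREP, with 23.1 and 34.5 CPM, had the lowest ratio, 0.669 (0.549 to 0.810). CD2, an adhesion receptor, had a ratio of 0.841 (0.792 to 0.893). The annexin ANXA6 and the intermediate filament VIM were lower too, at ratios of 0.718 (0.621 to 0.828) and 0.837 (0.812 to 0.862). Interferon-stimulated genes had a median log2 ratio of -0.06 over 24 genes, with IFI44 at 0.782 (0.685 to 0.891) and MX2 at 1.04 (0.925 to 1.17).

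The remaining lists of at least 5 measured members, MHC class II genes aside, had medians near that of all genes. Immediate early and AP-1 factors had a median log2 ratio of 0.09 over 16 genes, with 0 past 1.5-fold, and FOSB, an AP-1 factor, at 74.4 and 75 CPM. Survival and death genes had 0.05 over 17 genes, with PMAIP1, the death gene NOXA, at a ratio of 1.40 (1.17 to 1.66) beside BCL2A1. Cytokine receptors had 0.01 over 22 genes, with IL2RA as the 1 member past 1.5-fold (in 9 of 14 alternatives) and IL2RB, the beta chain of the same receptor, lower at 0.858 (0.763 to 0.964). S phase genes had -0.04 over 18 genes, and S100 and annexin genes -0.06 over 12. With at least 2 UMIs of IL4 the medians of these 2 lists were further from that of all genes, at -0.29 and -0.34. The 13 genes of mitochondrial DNA had -0.02, and the 8 measured iNKT identity markers 0.00 with EGR2 as the 1 member past 1.5-fold. Beside these counts, 0.735% of all genes were at least 1.5-fold higher.

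**Figure D5:**
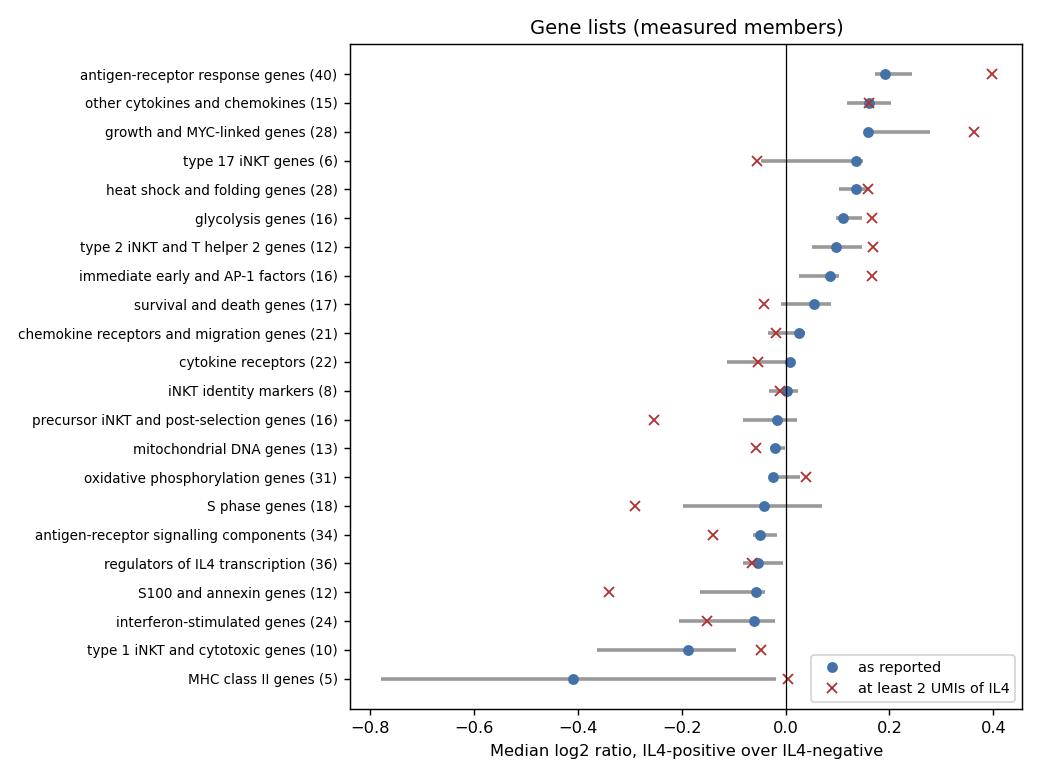
Median log2 ratio of IL4-positive over IL4-negative cells for each gene list with at least 5 measured members (number in brackets), as blue points, with grey lines for the range over the alternatives and red crosses for cells with at least 2 UMIs of IL4. Antigen-receptor response genes have the highest median, 0.19, and MHC class II genes the lowest, -0.41.

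The lowest ratios among genes with a symbol rested on few cells of the IL4-negative group. Of 5 measured MHC class II genes, 2, HLA-DRA and SLA-DMB, were at least 1.5-fold lower, beside 1.04% of all genes. The median log2 ratio of the 5 was -0.41, beside 0.00 for all genes. It ran from -0.78 to -0.02 over 14 alternatives and was 0.01 with at least 2 UMIs of IL4. HLA-DRA, an MHC class II chain, had 2 UMIs in IL4-positive and 100 in IL4-negative cells, a ratio of 0.0597 (0.00713 to 0.221), but the 100 came from 17 cells and 1 of these held 47. CCL5, a chemokine of cytotoxic cells, had 12 and 213 UMIs, the latter in 13 cells, a ratio of 0.168 (0.0855 to 0.300). JCHAIN, the joining chain of secreted antibodies, had 14 and 121 UMIs, a ratio of 0.345 (0.183 to 0.602), and 1 negative cell held 68. Without cells that carried at least 2 UMIs of markers of other cell types its ratio was 1.49. JCHAIN is itself one of those markers, so this setting left out every cell with at least 2 of its UMIs.

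The remaining 12 of the 15 lowest genes with a symbol were SLA-DMB, CENPS, CDAN1, TRERF1, NRCAM, TMEM186, KBTBD6, PMEPA1, NUDCD2, ADGRL1, ILVBL and KRI1. Their ratios ran from 0.463 to 0.556, with 15 to 38 UMIs in the positive group. SLA-DMB, a chain of the peptide-loading molecule of class II, had 3.20 and 6.91 CPM, and its partner SLA-DMA 26.5 and 35.2 CPM, a ratio of 0.751 (0.623 to 0.90). CD74, the class II invariant chain, was nearly level, at a ratio of 0.985 (0.971 to 0.999).

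Of the markers of other cell types, 0 to 3 genes a list were measured, and single markers were detected in many cells of both groups. CD79A was found in 43.8% of IL4-positive and 42.6% of IL4-negative cells, CD1B, a double-positive marker, in 17.2% and 20.3%, and RHEX, from the gamma-delta list, in 18.1% and 17.4%. B-lineage and plasma markers summed to 118 CPM in IL4-positive and 127 CPM in IL4-negative cells, nearly all of it CD79A, which had a ratio of 0.969 (0.883 to 1.06), while MS4A1 was at 0 in both. Myeloid and dendritic markers summed to 16 and 14.4 CPM, with LYZ at 0, and double-positive thymocyte markers to 38.5 and 49.2 CPM, with DNTT at 0. Of the gamma-delta T markers, SOX13 had 1 and 2 UMIs and TRDC 0 in both. Mast cell and basophil markers, of other cells that make IL4, were at 0 CPM in both groups over the 6 genes in the files. At least 2 UMIs of B-lineage, myeloid or double-positive markers were carried by 23.1% of IL4-positive and 25.5% of IL4-negative cells. Without such cells CD69, FCER2, IRF4 and CTLA4 remained past 1.5-fold, and 9 response genes reached it.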

How the data were processed

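Per the file headers, the deposited values are raw integer counts of UMIs for each gene in each cell barcode, without normalization. Per the submitters' processing notes the tools were Cell Ranger 3.1 and Seurat 3.1. The matrix header names Cell Ranger 3.1.0. The genome build was not given in the sources used here. Of 21301 gene identifiers, 14846 had a symbol in the deposited gene list, 687 took one from a table of gene names and 5768 had none.

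Cells were filtered as described in the report. For each IL4-positive cell, 3 IL4-negative cells were drawn without replacement from cells with total UMIs within 5%, or the nearest where none were left (22 cells). The counts of a group were added up and expressed per total of that group as CPM. Intervals at 95% are exact throughout: conditional binomial for ratios, Poisson for levels and Clopper-Pearson for shares of cells. UMIs are counts of captured molecules, so these intervals cover counting error only. Genes with at least 100 UMIs over both groups were measured. A list was summarised by its median log2 ratio, after 0.5 was added to each summed count, and by its members at least 1.5-fold apart. Lower means a ratio of at most the inverse of that fold.

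Named genes were every measured regulator of IL4 and locus gene, the 15 highest and 15 lowest ratios among genes with a symbol and an interval without 1, and the 3 highest and 3 lowest members of each other list. Other members of the lists are named as examples. The values of 1 response gene are not reported here, though it counts in its lists. The members, the 28 gene lists and the rule were chosen with earlier results of these data known.

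Doublets were scored with Scrublet in scanpy 1.11.5. Its automatic threshold called 1 of 11273 cells, so calling did not work, and an alternative left out the 902 highest scores, which held 12.1% of IL4-positive and 11.6% of drawn cells. The 17 alternatives cover the draw, matching, thresholds, scaling (TMM factors from edgeR 4.0.16), depth and cell filters. The 1.25-fold limit, the shares of IL4-positive cells by another gene and the joint detection of response genes were chosen after seeing the data. The calculation was tested on simulated data. Python 3.11.15 with numpy 2.4.6, scipy 1.17.1 and pandas 2.3.3 was used.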

Additional observations from a re-analysis of the deposited data

How the results depend on the processing

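No analysis paired by animal was possible because both groups come from 1 library and nothing links its cells to the pigs. The drawn cells were matched to the positive cells by total UMIs only, and the counts were summed over each group. The counts of genes past 1.5-fold (61 higher, 86 lower) moved with the setting. They were 31 and 11 with all IL4-negative cells weighted by depth, 126 and 217 with all of them and no matching, 123 and 174 with at least 2 UMIs of IL4, 253 and 443 with a minimum of 20 UMIs, and 20 and 6 with a minimum of 300 UMIs. With 1 drawn cell per positive cell 57 were higher and 37 lower. Under the other 11 alternatives both counts were within 1.5 times those reported. The 7 response genes became 5 to 9 under the alternatives that kept all cells or filtered them otherwise, and 2 of 20 measured without EGR or NR4A transcripts.

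Over 14 alternatives, those that split the cells by EGR and NR4A transcripts or set another IL4 threshold aside, CD69 kept a ratio of 2.07 to 2.35, FCER2 of 2.30 to 2.76, CCL4 of 3.55 to 6.88, IRF4 of 1.57 to 2.28, CTLA4 of 1.81 to 2.30 and EGR2 of 1.58 to 1.76. MAF ranged from 1.35 to 1.95 and was past 1.5-fold in 13 of them. Of 36 named genes past 1.5-fold, 15 stayed past it on the same side in each of the 14, and 21 did not. The 36 leave out NFKBID, CD200, COL4A2, KDSR and NRP1, whose ranges were not summarised. NFKBID fell below 1 without EGR or NR4A transcripts, as given above. Of the genes whose ranges follow, TRERF1, HLA-DRA and RASGEF1A stayed past 1.5-fold in each of the 14. ZNF304 ranged from 1.28 to 3.71, PLPP2 from 1.30 to 2.25, TULP2 from 1.11 to 4.85, IL2RA from 1.30 to 2.53, GZMH from 0.484 to 0.933, CENPS from 0.326 to 0.748, NRCAM from 0.508 to 0.837, TRERF1 from 0.270 to 0.533, ADGRL1 from 0.0769 to 0.687, HLA-DRA from 0 to 0.259 and RASGEF1A from 2.76 to 5.20. Of 141 named genes short of 1.5-fold, 53 crossed 1 in at least 1 of the 14, among them GATA3 (lowest 0.963), IL4R (0.905), CXCR4 (0.992), IL5 (highest 1.33) and XCL1 (2.38). Among the 36 past 1.5-fold, the ratio turned to the other side of 1, over all alternatives, for CCL5, 3.58 with another draw, for JCHAIN, 1.49 without cells with markers of other cell types, for TULP2, 0.704 with at least 2 UMIs of IL4 and 0.697 without EGR or NR4A transcripts, and for TMEM186, 1.14, and KBTBD6, 1.17, without those transcripts. JCHAIN is itself one of the markers by which cells were left out in that setting. Why the ratios turned was not tested. Of 2998 ratios of named genes under the alternatives, 2698 lay within the counting interval of the reported ratio. With 1 UMI of IL4 in most positive cells, depth limits which cells could be called positive, and cells of 2 pooled pigs cannot be told apart.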
